A study of Mus musculus with 8 samples.

Results

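Keratins and the proteins of the cornified envelope were followed at the transcript level in mouse kidneys injured by cisplatin, a platinum chemotherapy drug that damages the proximal tubule. Genes were chosen by name among the protein-coding genes of the deposited count table: numbered keratins (Krt), small proline-rich proteins (Sprr), late cornified envelope proteins (Lce), Crct1, involucrin (Ivl), loricrin (Lor) and filaggrins (Flg), and only where the gene's row held 8 values, one for each library. This gave 52 genes, 27 keratins and 25 cornified envelope genes, out of 35880 rows with 8 values, of which 12286 were protein-coding. The rule used neither a level nor a fold change, but the family was picked with results of the same comparison known, since several of its genes were among those with the largest differences. The differences between cisplatin-treated and control kidneys are therefore given as a description, without p-values, and nothing is read from the number of genes called.

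Kidneys came from 4 control mice, labelled 1, 2, 3 and 5, and from 4 cisplatin-treated mice, labelled 1, 3, 4 and 6. By the study's methods these were male C57/BL6J mice, wild type in the labels. Controls received saline and the others a single intraperitoneal injection of cisplatin at 23 mg/kg. Kidneys were taken 72 h later. One whole-kidney RNA library was made per mouse, so in these bulk samples a change in the number of cells of a type and a change in RNA per cell cannot be told apart.

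Keratins are the intermediate filament proteins of epithelia, built from pairs of an acidic type I and a basic type II chain. Simple, one-layered epithelia such as kidney tubules and collecting ducts use mainly Krt8 (type II) with Krt18 (type I), while stratified epithelia, urothelium and hair use other pairs. The cornified envelope is the cross-linked protein shell under the membrane of the outermost epidermal cells, in which involucrin forms the scaffold, loricrin the bulk, Sprr proteins the cross-bridges and Lce proteins a late addition. Most of its genes lie side by side on chromosome 3 in the epidermal differentiation complex, and several Sprr genes are also known to be induced in stressed or injured epithelia outside the skin.

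The counts are reads assigned to each gene, and levels are given as CPM, counts divided by the size of the library, after TMM normalization, which scales the libraries so that most genes do not differ. Total counts over the rows used ranged from 10953338 to 16701599 per library, and 3 counts, taken as the smallest measurable level, corresponded to at most 0.266 CPM in the controls and 0.238 CPM in the cisplatin-treated kidneys, a limit that covers counting error only. Apart from treatment, the libraries fell into a first set (control 1, 2 and 3, cisplatin 1 and 3) and a second set (control 5, cisplatin 4 and 6), which the second principal component, holding 16.1% of the variance, separated even with the 52 genes left out. In cisplatin 1 and 3, both of the first set, Kdm5d and Eif2s3y of the Y chromosome had 0 to 3 counts, against 274 to 576 and 541 to 1333 in the other libraries, which goes against the stated sex. Within-set values are given beside the results that they touch. In the first set apparent sex went with treatment, so there the 2 cannot be told apart.

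Row form set which family members could be seen. In all, 94 protein-coding genes matched the names, and 42 of them, 26 keratins and 16 cornified envelope genes, stood in rows with 10 values, 2 more than the header names, and were not used here. Among those 42 are Krt7, Krt19 and Krt23 of the simple epithelial keratins, Krt5 and Krt14 of basal cells, Krt1 and Krt10 of the epidermis, and Sprr1a. Row form went with level: 17 of the 12286 protein-coding rows with 8 values had a mean of 1 to under 10 counts, against 1347 with a mean between 0 and 1 and 2275 with a mean of 10 to under 100.

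Of the 52 genes, 18 passed the expression filter of edgeR and were tested. With edgeR's quasi-likelihood test (adjusted p under 0.05 with a log2 difference of 1 or more in size), 16 of the 18 were called higher after cisplatin, where 19.2% of the 9141 genes tested were, and 0 were called lower, where 15.7% were. One gene was lower at an unadjusted p under 0.05. DESeq2 called 16 higher and 0 lower, where it called 1771 and 1524 of all 9141 genes. In 15 of the 18 the cisplatin libraries lay wholly above the controls, which held for 23.7% of all genes tested, and in 1 wholly below, which held for 22.5%. Of the 18, 8 had 0 counts in all 4 controls and passed the filter only through the cisplatin-treated kidneys. Sprr2f, Ivl, Krt87, Krt20, Lor and Krt15, with 2, 2, 15, 28, 32 and 33 control counts, also had too few to pass on the controls alone. Only Krt8, Krt18, Krt80 and Krt222 had enough. The numbers called and not overlapping were thus set in large part by the filter as well as by the choice of the family. The median log2 fold change of all genes tested was 0.08, and it moved to 0.64 when libraries were scaled by their total counts alone, so that every difference here is relative to the TMM scale.

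**Figure D1:**
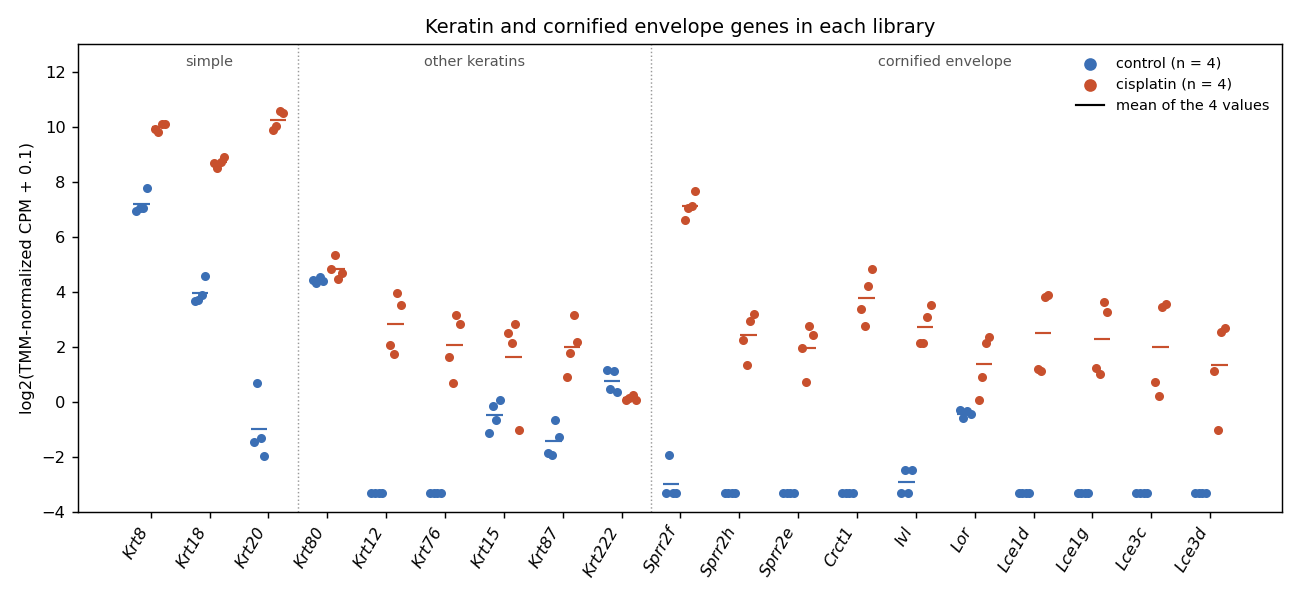
Level of the 18 tested genes and Lce3d in each library, on a log2 scale of TMM-normalized CPM with 0.1 added, so that 0 counts sit at the bottom of the axis; each point is 1 kidney and each short line the mean of 4. Krt8 and Krt18 were measured in every control, the 4 Lce genes and Crct1 had no control counts, and Krt80, Krt15 and Krt222 lie close to or across the control values.

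Krt8, the type II chain of simple epithelia, stood at 121, 131, 133 and 216 CPM in controls 1, 2, 3 and 5 and at 953, 895, 1086 and 1084 CPM in cisplatin 1, 3, 4 and 6. All treated kidneys were above all controls, and control 5, of the second set, was the highest control. The means were 150 ± 44.2 (SD, n = 4) and 1004 ± 95.9 CPM (SD, n = 4), a 6.69-fold difference, with a log2 fold change of 2.74 (SE 0.23). Krt18, its type I partner, stood at 12.6, 12.9, 14.5 and 23.5 CPM in the controls and at 404, 364, 423 and 478 CPM after cisplatin. Its groups were also apart, and its log2 fold change of 4.72 (SE 0.25) corresponded to a 26.3-fold difference of means. The genes of this pair lie 23.7 kb apart on chromosome 15.

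Krt20, a type I keratin known from intestinal epithelium and the umbrella cells of the urothelium, was at 0.266, 1.52, 0.303 and 0.157 CPM in the controls, that is 3, 19, 4 and 2 counts. After cisplatin it was at 938, 1026, 1516 and 1433 CPM, that is 20620, 18656, 20704 and 18072 counts. The log2 fold change was 11.07 (SE 0.65), and without control 2, which held 19 of the 28 control counts, it was 12.25. Within the first set alone it was 10.38. Per kb of gene length, Krt20 reached 637 ± 150 CPM per kb (SD, n = 4) in the treated kidneys, Krt8 513 ± 49.0 and Krt18 290 ± 32.8. Krt20 was thus above Krt8 in the mean, although in cisplatin 1 both held 38.4% of the keratin signal. The spread of Krt20 among treated kidneys lay along the library sets, with 982 CPM in the mean of cisplatin 1 and 3 and 1474 CPM in that of cisplatin 4 and 6.

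These 3 genes made up nearly the whole measured keratin signal in the treated kidneys. Summed over the 27 keratins, levels went from between 75.0 and 131 CPM per kb in the controls to between 1256 and 1660 CPM per kb. In the controls Krt8 made up 82.8 ± 0.998% (SD, n = 4) of this sum, Krt18 11.9 ± 0.58%, Krt80 3.80 ± 0.92% and Krt20 0.353 ± 0.42%. In the treated kidneys the shares were 35.5 ± 2.38% for Krt8, 20.1 ± 1.82% for Krt18, 0.323 ± 0.13% for Krt80 and 43.4 ± 3.87% for Krt20. The keratins of the unused rows, Krt7 and Krt19 among them, are in neither sum.

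**Figure D2:**
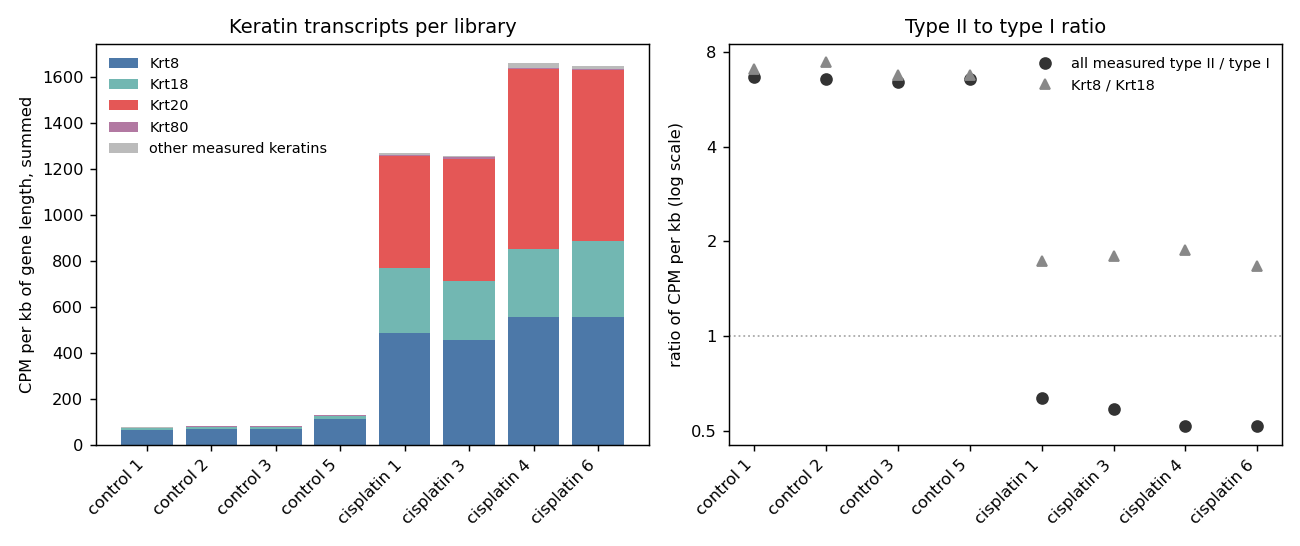
Left, CPM per kb of gene length summed over the 27 measured keratins in each library, split by gene; right, ratio of type II to type I keratin transcripts per library on a log2 axis, for all measured keratins (circles) and for Krt8 over Krt18 (triangles), with the dotted line at equal levels. The sum is 1256 to 1660 after cisplatin and 75.0 to 131 in controls, and the circles drop below 1 in all 4 treated kidneys while the triangles stay above 1.

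Since filaments need both chains, the ratio of type II to type I transcripts was set out for each library. In CPM per kb it was 6.67, 6.58, 6.42 and 6.56 in controls 1, 2, 3 and 5 and 0.637, 0.589, 0.517 and 0.519 in cisplatin 1, 3, 4 and 6. The mean went from 6.56 ± 0.10 to 0.566 ± 0.058 (SD, n = 4 each), a difference of -3.54 on the log2 scale of the ratio. Control 5, which had the most keratin of the controls, lay inside the range of the other 3. For Krt8 over Krt18 alone the ratio was 6.98 ± 0.32 in controls and 1.77 ± 0.094 after cisplatin, and with Krt20 added to Krt18 it was 0.561 ± 0.058. So Krt18 came closer to Krt8 without passing it, and Krt20 carried the sum of type I transcripts above type II. These are ratios of measured transcripts, not of proteins, and they lack Krt7, a type II chain, and Krt19 and Krt23, type I chains.

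For the printed 100 bases before the start of Krt20 (RefSeq, GRCm38.p6, chr11:99438154-99438253, minus strand), shown because this gene had the highest keratin level after cisplatin, capitals mark TATAAA, the core of the TATA box that places the start of transcription in many tissue-restricted genes. It begins 29 bases before the start. Either strand of TATAAA was found in 13.6% of 32851 promoters of 300 bases.
Krt20: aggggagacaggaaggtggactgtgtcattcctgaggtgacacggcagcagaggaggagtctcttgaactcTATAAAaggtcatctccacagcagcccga

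The keratins of stratified epithelia, urothelium and hair stayed far lower, none of them above a mean of 4.59 CPM per kb after cisplatin. Of 23 such genes, 5 passed the filter, 4 were called higher, where 19.2% of all genes tested were, and Krt80 was not called. Of those 4, Krt12 and Krt76 had no control counts and passed the filter only through the treated kidneys. Krt87 and Krt15, with 15 and 33 control counts, also had too few to pass on the controls alone. The median log2 fold change of the 5 was 3.89, beside 4.72 for the 3 simple keratins, medians of too few genes to be compared. Both values shift with Krt20, which is both a simple and a urothelial keratin: counted with the second class it moves the medians to 3.73 and 6.54. With Krt12 and Krt76 put at their lower bounds, the median of the 5 was also 3.89.

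Krt80, a type II keratin found in many epithelia, was at 21.5, 20.02, 23.1 and 20.7 CPM in the controls. Per kb this was 3.33 CPM per kb in the mean, above Krt15 at 0.372 and Krt87 at 0.130. After cisplatin it stood at 28.2, 39.8, 22.0 and 25.5 CPM, with cisplatin 4 inside the control range, and the log2 fold change was 0.44 (SE 0.20). Krt12, the type I keratin of corneal epithelium, had 0 counts in every control and 4.05, 3.24, 15.3 and 11.4 CPM after cisplatin. Against the limit of 3 counts in the smallest control library the mean was at least 32.0-fold higher. Of the 50-base windows in its annotated transcripts, 42.0% are shared with A830036E02Rik, an overlapping antisense gene, and 29.0% of the 100-base windows. Whether the counting used strand is not given in the sources used here. Reads from the shared part of the 2 genes therefore cannot be told apart.

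Krt76, a type II keratin of the palate and other oral epithelia, also had 0 counts in the controls, with 2.96, 1.48, 8.78 and 6.90 CPM after cisplatin, at least 18.9-fold higher in the mean. Krt87, a hair keratin, was at 0.177, 0.1595, 0.531 and 0.315 CPM in the controls and at 1.77, 3.30, 8.86 and 4.44 CPM after cisplatin, with a log2 fold change of 3.89 (SE 0.61). Its groups did not overlap, but 36.9% of its 50-base windows occur in Krt81, Krt83, Krt86 or Gm49425, so reads can be split among them. Krt15, a type I keratin of basal cells in stratified epithelia, was at 0.354, 0.798, 0.531 and 0.944 CPM in the controls and at 5.59, 4.23, 7.03 and 0.397 CPM after cisplatin. It was the 1 called gene with overlapping groups: cisplatin 6 lay inside the control range, and without that library the log2 fold change went from 2.70 (SE 0.71) to 3.07.

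Krt222, a keratin-like gene placed in no class here, went the other way. It was at 2.13, 1.28, 2.05 and 1.18 CPM in the controls and at 0.955, 0.990, 1.098 and 0.952 CPM after cisplatin. All treated kidneys were below all controls by a narrow margin, and the log2 fold change of -0.73 (SE 0.32) was not called. With libraries scaled by total counts alone it was -0.17.

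Among cornified envelope genes, Sprr2f, a small proline-rich protein, dominated. It had 2 counts in control 2 and none in the other controls, and stood at 96.1, 133, 138 and 201 CPM in cisplatin 1, 3, 4 and 6. The ratio of its summed levels was 3347, with an exact 95% counting interval from 926 to 27638, which pools the 4 controls and covers counting error only. Without control 2 no control count was left, and against 3 counts in the smallest control library the level was at least 534-fold higher. Sprr2f held 74.8%, 85.6%, 60.8% and 66.4% of all cornified envelope counts in cisplatin 1, 3, 4 and 6. Per kb its mean of 233 ± 71.3 CPM per kb (SD, n = 4) stood beside 290 ± 32.8 for Krt18, and in CPM per kb it was below Krt18 in all 4 treated kidneys, at 158 against 281, 218 against 253, 226 against 295 and 330 against 332. Its relatives Sprr2h and Sprr2e were lower, at 7.90 and 6.65 CPM per kb. Sprr2h had 4.68, 2.42, 7.54 and 9.12 CPM and Sprr2e 3.78, 1.54, 6.59 and 5.31 CPM after cisplatin, both with 0 counts in the controls. These were at least 22.4-fold and at least 16.2-fold higher.

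Read sharing was checked as the percentage of the 50-base windows of a gene's annotated transcripts (GENCODE release 21 of the mouse) that also occur in a transcript of another gene. It was 0% for Sprr2h, 10.2% for Sprr2e, with Sprr2d, Sprr2f and Sprr2i, and 0.714% for Sprr2f. By the study's methods reads were paired and 150 bases long, and longer windows share less. In windows of 100 bases it was 1.1% for Sprr2e and 0% for Sprr2f and Sprr2h. Transcripts of Sprr2e and Sprr2f were 74.1% identical when aligned, those of Sprr2f and Sprr2h 65.6%. Reads with mismatches could still be assigned across the family, and how multiply mapped reads were treated is not given in the sources used here.

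Ivl, the scaffold protein of the envelope, had 1 count each in control 2 and 5 and none in the other controls, and 4.32, 4.29, 8.42 and 11.3 CPM after cisplatin. The ratio was 161, with an exact 95% counting interval from 44.4 to 1336, which rests on those 2 control counts. Crct1, a cysteine-rich gene of the same chromosomal cluster, had 0 counts in the controls and 10.3, 6.65, 18.2 and 28.2 CPM after cisplatin, at least 59.6-fold higher. Lor, the main structural protein of the epidermal envelope, was measurable in all controls at 0.708, 0.558, 0.683 and 0.629 CPM and stood at 0.955, 1.76, 4.32 and 5.00 CPM after cisplatin. Its log2 fold change was 2.19 (SE 0.54), but within the first set alone it was 0.99 and not called, and the rise lay mostly in cisplatin 4 and 6. The 9 tested cornified envelope genes were called higher, where 19.2% of all genes tested were. However, 6 of them were at 0 in the controls, and Sprr2f, Ivl and Lor had too few control counts to pass on the controls alone. All 9 thus passed the filter only through the treated kidneys. The fitted median of the 9 was 9.50 on the log2 scale, and 4.59 with those 6 put at their lower bounds and the others at their estimates.

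The Lce genes, whose products join the envelope late in differentiation, had 0 counts in every control. Lce1d was at 2.18, 2.09, 14.1 and 14.7 CPM in cisplatin 1, 3, 4 and 6, at least 31.1-fold higher in the mean. Lce1g was at 2.23, 1.92, 12.1 and 9.44 CPM, at least 24.2-fold higher. Lce3c was at 1.55, 1.04, 10.8 and 11.7 CPM, at least 23.6-fold higher. Lce3d, which missed the filter, had 46, 7, 78 and 79 counts, a mean of 3.61 ± 2.84 CPM (SD, n = 4) and at least 13.6-fold more than the limit. Sequence is shared within this family: 35.7% of the 50-base windows of Lce3c and 49.3% of those of Lce3d occur in other Lce genes, with 25.4% and 17.8% for Lce1d and Lce1g. In windows of 100 bases it was 24.2% for Lce3c and 28.3% for Lce3d, but 1.55% for Lce1d and 1.70% for Lce1g. Lce3c and Lce3d transcripts were 82.9% identical, so their separate levels are uncertain.

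**Figure D3:**
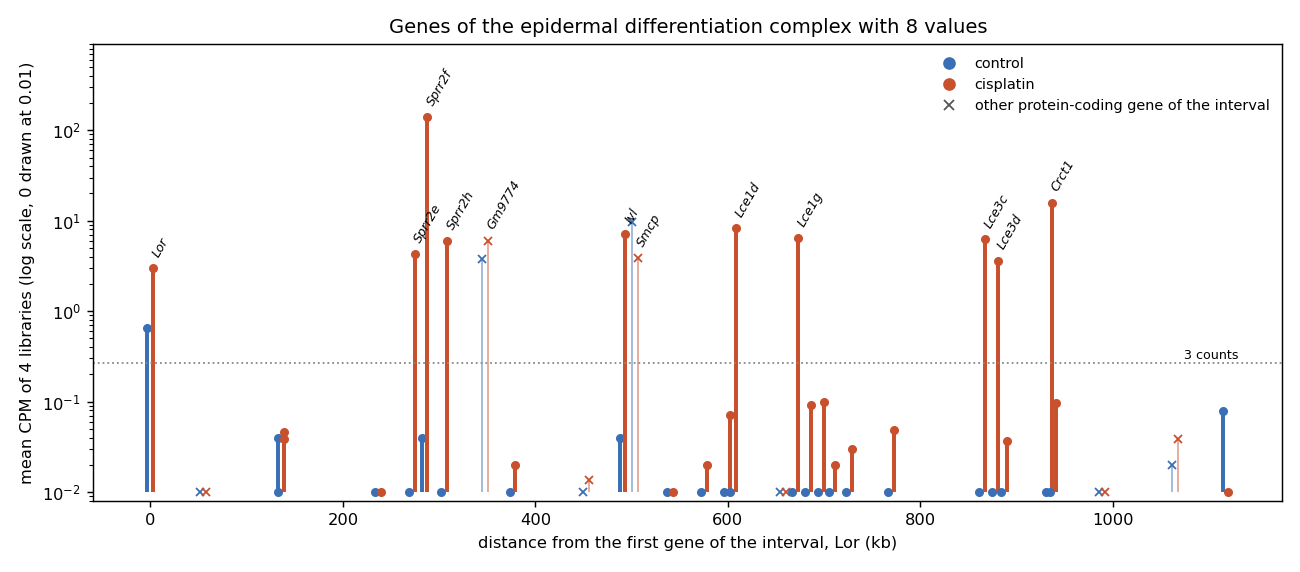
Mean CPM (log scale, 0 drawn at 0.01) of the 32 protein-coding genes with 8 values in the epidermal differentiation complex, by distance in kb from Lor, its first gene in the interval; filled points are the 25 cornified envelope genes, crosses the other 7 genes, and the dotted line is the level of 3 counts. Cisplatin points pass 1 CPM in separate places along the 1141 kb, with gaps of genes below the line between them.

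The genes were not measured all along the cluster. The 25 cornified envelope genes span 1141 kb of chromosome 3, from 92080271 to 93221391 in GRCm38, and 7 other protein-coding genes with 8 values lie in the interval. Of those 7, Gm9774 and Smcp passed the filter, and neither was called. Among the 25, 10 had at least 10 counts over the 8 libraries and 15 had fewer, Flg2 and Sprr2b among them. Over both families 33 genes were below 10 counts, with at most 6 counts in total for any of them and 7 at 0 in every library. Together those 33 had 8 counts in the controls and 68 in the treated kidneys, with counts only after cisplatin in 22, only in controls in 1 and in both in 3. The 16 cornified envelope genes in rows with 10 values are missing here. Since 17 of 12286 protein-coding rows with 8 values had a mean of 1 to under 10 counts, the gap in level goes with row form.

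The sequences before the start of 5 cornified envelope genes are given because they share a short motif. These are the 220 bases upstream (RefSeq, GRCm38.p6) of Sprr2f at chr3:92364967-92365186, Sprr2e at chr3:92351923-92352142 and Sprr2h at chr3:92385465-92385684, all on the plus strand, and of Ivl at chr3:92573736-92573955 and Lor at chr3:92083143-92083362, on the minus strand. Capitals mark TGANTCA, the core of the site known to be bound by AP-1 (Jun and Fos) factors, and TATAAA.
Sprr2f: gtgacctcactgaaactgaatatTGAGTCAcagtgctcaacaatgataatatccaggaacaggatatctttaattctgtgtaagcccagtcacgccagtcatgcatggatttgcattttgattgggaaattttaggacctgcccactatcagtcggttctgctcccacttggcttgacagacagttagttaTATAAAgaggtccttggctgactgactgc
Sprr2e: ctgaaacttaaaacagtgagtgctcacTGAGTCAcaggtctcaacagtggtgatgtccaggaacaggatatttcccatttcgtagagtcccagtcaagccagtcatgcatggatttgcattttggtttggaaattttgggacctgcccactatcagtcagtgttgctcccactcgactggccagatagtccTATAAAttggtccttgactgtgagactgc
Sprr2h: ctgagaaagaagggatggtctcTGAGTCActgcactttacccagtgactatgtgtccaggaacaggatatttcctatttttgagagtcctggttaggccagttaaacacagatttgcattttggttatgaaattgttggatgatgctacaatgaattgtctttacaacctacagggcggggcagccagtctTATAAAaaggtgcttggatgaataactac
Ivl: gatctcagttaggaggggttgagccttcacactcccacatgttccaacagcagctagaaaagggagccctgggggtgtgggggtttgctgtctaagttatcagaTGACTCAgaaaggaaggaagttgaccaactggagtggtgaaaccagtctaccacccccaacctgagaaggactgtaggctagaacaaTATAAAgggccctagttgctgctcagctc
Lor: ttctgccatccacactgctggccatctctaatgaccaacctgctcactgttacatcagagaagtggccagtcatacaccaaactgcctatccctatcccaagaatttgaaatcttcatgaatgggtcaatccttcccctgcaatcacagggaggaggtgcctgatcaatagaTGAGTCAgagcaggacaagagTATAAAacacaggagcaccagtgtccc

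In windows of 300 bases, from 250 before to 50 after the start, TGANTCA, which reads the same on both strands, was present in 7.81% of 32851 promoters. Of the 19 genes with at least 10 counts, 14 had a promoter in the table. The motif was present in 5 of the 9 cornified envelope genes with at least 10 counts that had one, and in 2 of the 15 with fewer, Flg2 and Sprr2b. It began 197, 193 and 198 bases before the start in Sprr2f, Sprr2e and Sprr2h, and 116 and 48 bases before it in Ivl and Lor. The 3 Sprr2 promoters are related by sequence, at 61.9% to 75.8% identity, so they are not independent of each other. It was in 0 of the 3 simple keratin promoters. TATAAA was in 6 of the 9, 29 bases before the start in all 3 Sprr2 genes, and in 5 of the 15. GGGCGG, a motif of broadly used promoters, was in 1 of the 9, Sprr2h, and in 35.7% of all promoters. A match of letters is a description of the sequence and does not show binding.

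**Figure D4:**
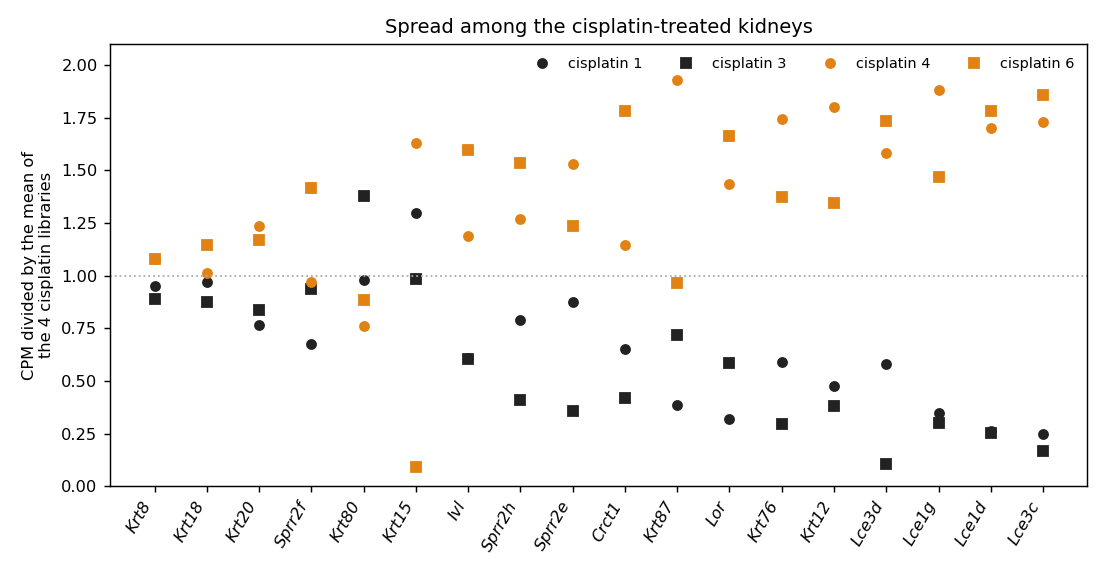
Level of 18 genes in each cisplatin-treated kidney divided by the mean of the 4, with cisplatin 1 and 3 (first library set, almost no Y-linked counts) in black and cisplatin 4 and 6 (second set) in orange; the dotted line is the mean. Krt8 and Krt18 lie near 1, and toward the right the Lce genes split into a low black pair and a high orange pair.

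The treated kidneys did not carry these genes to the same degree. The mean of cisplatin 4 and 6 over that of cisplatin 1 and 3 was 1.17 for both Krt8 and Krt18, 1.48 for Sprr2f and 1.502 for Krt20. It was 2.24 for Sprr2e, 2.29 for Ivl, 2.35 for Sprr2h, 2.74 for Crct1 and 3.43 for Lor. It was 3.53 for Krt76 and 3.66 for Krt12, and among the Lce genes 4.83 for Lce3d, 5.18 for Lce1g, 6.74 for Lce1d and 8.68 for Lce3c. Summed over the Lce genes, cisplatin 1 and 3 had 8.32 and 5.55 CPM and cisplatin 4 and 6 had 43.7 and 42.7 CPM. Krt15 and Krt80 went the other way, at 0.755 and 0.698. The sets were read from the data, so these ratios have no test. Among the treated kidneys the same split separates the libraries with and without Y-linked counts, so the library set and the apparent sex cannot be told apart. In the plotted genes other than Krt80 and Krt15, every treated kidney of either set lay above every control, the lowest being Lce3d in cisplatin 3 at 0.385 CPM. Tubule markers differed between the same kidneys. The summed thick ascending limb and distal tubule markers were at 4105 and 2384 CPM in cisplatin 1 and 3 and at 1070 and 436 CPM in cisplatin 4 and 6, and the proximal tubule markers at 341 and 377 CPM and at 789 and 1195 CPM. Their part in the split of the Lce genes was not tested.

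Other genes of cornification were taken from a list drawn up with earlier results known. Of its 47 genes, 28 had values, 23 were tested, 17 were called higher, where 19.2% of all genes tested were, 1 lower, where 15.7% were, and 5 were not called, with a median log2 fold change of 1.94. Of the 17, Casp14, Aloxe3, S100a3 and Cst6, with 0, 1, 3 and 4 control counts, passed the filter only through the treated kidneys. S100a8, S100a14, S100a9 and Cdsn, with 12, 18, 47 and 57 control counts, did not reach the filter's level in every control. They could not have passed on the controls alone. The count called higher was thus set in part by the filter. Among those called higher, Casp14, the protease of terminal keratinocyte differentiation, went from 0 counts to 3.79 ± 1.71 CPM (SD, n = 4). Cst6, a protease inhibitor of the cornified layer, was at 2.14 and 1.32 CPM in cisplatin 1 and 3 and at 13.4 and 12.6 CPM in cisplatin 4 and 6, the pattern of the Lce genes. Cdsn, the corneodesmosome protein, had a log2 fold change of 2.45 (SE 0.44). Aloxe3, a lipoxygenase of the epidermal lipid barrier, went from 1 count in the controls to 12.3 ± 4.94 CPM, and Sbsn, a secreted protein of differentiating epidermis, had a log2 fold change of 1.94 (SE 0.23). The 5 that were not called, named after their values were seen, were Tgm2, a cross-linking enzyme, at a log2 fold change of 0.63 (SE 0.26), the envelope protein Evpl at 0.04 (SE 0.24), the junction protein Jup at 0.54 (SE 0.14), the protease Klk8 at -0.13 (SE 0.40) and Trp63 at 0.27 (SE 0.42).

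The S100 calcium-binding proteins of the list that were called higher were S100a3, S100a6, S100a8, S100a9, S100a11, S100a14 and S100a16. S100a6 went from 6.26 ± 4.24 to 446 ± 60.5 CPM (SD, n = 4 each), while S100a8 and S100a9 are proteins mainly of neutrophils. Of the transcription factors, Klf5, Grhl1, Grhl2 and Zfp750 were called higher, with log2 fold changes of 3.68 (SE 0.37), 1.89 (SE 0.35), 1.44 (SE 0.26) and 1.62 (SE 0.22). Ovol1, a regulator of epithelial differentiation, was called lower, at -1.02 (SE 0.23). Dsp, the desmosome protein that anchors keratin filaments, was called higher at 1.48 (SE 0.29), but with 205 CPM in the mean of cisplatin 1 and 3 and 94.1 CPM in that of cisplatin 4 and 6 it split against the Lce genes.

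Markers of cells that could carry these transcripts were set beside them. The 5 proximal tubule markers were all called lower, and their summed level went from between 16548 and 23086 CPM in the controls to between 341 and 1195 CPM. Of the thick ascending limb and distal tubule markers 2 of 3 were called lower, of the collecting duct markers Aqp2 was called higher and the other 2 were not called, and Nphs1, the 1 podocyte marker with values, was not called. Among basal cell markers of stratified epithelium, Trp63, the defining transcription factor, was at 2.19 ± 0.71 and 2.63 ± 1.46 CPM (SD, n = 4) and was not called, Col17a1 was called higher, and Dsg3 had 0 counts in the controls and 4 over all treated kidneys. Of the differentiated epidermis markers other than the genes studied, Cdsn and Casp14 were called higher, Dsg1a was at 0 in every library and Klk7 was near 0. The part that such cells have in the result was not tested.

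For the urothelium, whose umbrella cells carry Krt20, 2 of the 3 tested uroplakins were called higher, Upk1a and Upk3b. The summed uroplakin level was 6.82, 7.42, 6.07 and 8.89 CPM in controls 1, 2, 3 and 5 and 17.5, 39.5, 37.6 and 7.30 CPM in cisplatin 1, 3, 4 and 6. In cisplatin 6 it was inside the control range, with Upk3a at 0, and in the same library Krt20 stood at 1433 CPM, Sprr2f at 201 CPM and Crct1 at 28.2 CPM. The latter 2 were highest in that library. Krt15 was the exception, with 0.397 CPM in cisplatin 6, at the control level as the summed uroplakins were. Singly, Upk1a at 3.97 CPM in cisplatin 6 was above the highest control at 3.43 CPM. Upk1b, which missed the filter, was at 0.238 CPM there and at 0.266 CPM in the lowest control. Both values are 3 counts and differ by library size alone. Upk3a and Upk3b lay within the control range. The part of the urothelium in these levels was not tested.

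Read sharing of the remaining genes is given in the same way. No 50-base window of Krt20 and 0.72% of those of Krt18 occur in another annotated gene. For Krt8 it was 29.7%, from the overlapping Gm36026 and from Krt8-ps, and 17.1% of windows of 100 bases. Crct1 and Lor had 0%, Ivl 0.48%, Krt15 0.64%, Krt222 0.12% and Krt76 and Krt80 2.74% each.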

How the data were processed

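Kidney RNA of 4 control and 4 cisplatin-treated mice was measured by bulk RNA-seq. Per the submitters' processing notes, reads were cleaned with fastp and aligned by HISAT2 to GRCm38. The values the authors deposited are counts for each gene, not normalized. The counting tool and its strand setting are not given in the sources used here. The study's methods and the labels name different library kits, and only the kit of the labels is described as stranded. Of 53715 rows, 35880 held 8 values and were used. In the other 17835 the 2 unnamed extra values prevented assignment to libraries, and these columns were used in no step. The totals per library, 10953338 to 16701599, therefore cover part of each library.

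Genes were filtered with filterByExpr, TMM-normalized and tested over the whole table in edgeR 4.0.16 (R 4.3.3) with the quasi-likelihood test and Benjamini-Hochberg adjustment over 9141 genes. Calls required adjusted p under 0.05 with a log2 difference of 1 or more in size. The SE is the log2 fold change divided by the square root of F. Levels between genes were compared per kb of the deposited gene length. Genes at 0 in all controls were given a lower bound against 3 counts in the smallest control library, and genes with 1 to 3 control counts a ratio with its exact 95% interval. Windows and coordinates came from GENCODE release 21, where all 52 genes had the deposited coordinates, and promoters from RefSeq (GRCm38.p6). The procedure was tested on simulated data.

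Every gene kept by the filter is named, with its value in each library where a group mean reached 1 CPM, and untested genes are named from 10 counts upward. Flg2, Sprr2b, Gm9774, Smcp and the list genes not called were named after their values were seen. The genes, classes and lists were chosen with earlier results of these data known. A permutation p for the type II to type I ratio was planned but is not given, since the ratio comes from the comparison that led to the choice of genes. Alternatives were DESeq2 1.42.0, other normalizations and filters, the replicate block, the library set as a covariate, the first set alone and each library left out.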

Additional observations from a re-analysis of the deposited data

Results flagged for a closer look

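In groups of 4, a library was singled out where its gap to the nearest other value passed Dixon's 95% critical value when divided by the group's range, which chance gives for about 1 in 20 groups. Of 38 groups examined, 4 passed. Krt8 was high in control 5, with a gap of 0.874 of the range. Krt20 was high in control 2, by 0.892 of the range in CPM and by 0.860 in its share of the keratin sum, and these 2 values rest on the same 19 counts. Sprr2f was measured in control 2 alone among the controls, a gap of 1 times the range that rests on 2 counts.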

How the results depend on the processing

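Over 18 genes and 17 alternatives, 292 log2 fold changes were obtained and 0 changed sign. For the 8 genes with 0 counts in every control the sign could not change, so it says nothing about them. In 289 of the 292 the gene stayed on its side of the call. Lor lost its call with the replicate block (0.93) and in the first library set alone (0.99), and Krt80 was called with total library size alone (1.01). The count called higher was 15 with the replicate block and with the first set alone, where 1710 of 9141 and 1623 of 9222 of all genes tested were. It was 16 to 17 with each library left out, where 1559 to 1848 of all genes tested were. It was 2 of the 4 genes that had at least 10 counts in every library, where 1101 of 7485 of all genes were. That filter drops genes absent from controls. The replicate block compares only control 1 and 3 with cisplatin 1 and 3, all of the first set. There the controls had Y-linked counts and the treated kidneys almost none. Neither the block nor the first set alone thus separates treatment from apparent sex. The count called lower was 0 throughout. Replicate numbers 1 and 3 occur in both groups, same-numbered libraries deviated together with r = 0.25 and 0.28 across genes, and nothing in the labels pairs the mice. These libraries are all of the first set, and the correlation of differently numbered ones was not computed. The r values therefore cannot show pairing by number. The replicate block lowered the median of the cornified envelope genes from 9.50 to 8.23, and the first set alone gave 8.02 and no filter, with 23 genes, 3.37. For the stratified, urothelial and hair keratins the median of 3.89 became 2.42 with no filter, 0.47 with at least 10 counts in every library (Krt80 alone), 3.05 in the first set alone and 6.54 with Krt20 added. For the simple keratins 4.72 became 5.29 with total library size alone, 3.76 with at least 10 counts in every library and 3.73 without Krt20. With each library left out the medians ranged from 9.09 to 9.72, from 3.36 to 4.32 and from 4.61 to 4.95. The log2 difference of the type II to type I ratio, -3.54, was -3.85 without division by length, -3.42 in the first set alone and -3.60 to -3.50 with each library left out. Low genes are limited by depth, and the rows with 10 values leave family members unmeasured here.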
